A study of Mus musculus with 5 samples.

Results

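The SR proteins and the heterogeneous nuclear ribonucleoproteins (hnRNPs) are the main families of regulators of pre-mRNA splicing. Their genes were taken as the protein-coding RefSeq genes (build GRCm38.p6, the same chromosomes as mm10) with a symbol that begins with Srsf or Hnrnp. This gave 32 of 21887 protein-coding genes, 11 Srsf genes and 21 Hnrnp genes, by symbol alone; these families were picked for description with earlier results of these data known. All 5 libraries of the study came from wild-type B6 mice and from 1 sorted cell population, mTEClo, the medullary thymic epithelial cells that carry EpCAM and bind UEA-1 and have little Ly51 and CD80. The age of the mice is not given in the sources used here. The 2 ChIP libraries, series 1 and series 2, were precipitated with an antibody to H3K36me3, and the 3 input libraries had no antibody. The labels mention individual mice without naming a mouse for each library, so the difference between the series may be technical as well as biological.

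H3K36me3 is placed on histone H3 by Setd2, which travels with elongating RNA polymerase II, and the mark therefore lies in the bodies of transcribed genes and mostly spares their starts. SR proteins bind exonic enhancers through RNA recognition motifs and recruit the splicing machinery through a tail rich in arginine and serine. hnRNPs coat nascent transcripts and often act against SR proteins at the same exons, and many genes of both families adjust their own output by including or skipping an exon that sends the transcript to nonsense-mediated decay. Some SR proteins and hnRNPs are known to be brought to chromatin by readers of H3K36me3, and in the medullary epithelium alternative splicing adds to the range of self-antigens shown to T cells.

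Broad peaks were called in each ChIP library against input. The list of series 1 has 7231 peaks (4.43 Mb, median width 483 bp), and that of series 2 has 10243 (3.38 Mb, median width 222 bp). Each peak carries a score but no read count. Depth is therefore not known, and no peak in a gene means only that none was detected there. Of 8 markers of medullary thymic epithelium, Krt5 had a peak in both series, Trp63 in series 1 and Relb in series 2, and the other 5, Epcam, Krt14, Krt8, Foxn1 and Ccl21a, had none. That is 3 of 8 (37.5%) in either series, where 27.4% of all coding genes were hit, so these counts say little about cell identity. None of 8 thymocyte markers had a peak. Markers of other cells were hit too: Fbn1 of 4 fibroblast genes and Flt1 of 4 endothelial genes in both series, and 3 of 4 myeloid and B cell genes (Itgam, Cd68 and Ebf1) in at least 1. Fbn1, Flt1 and Ebf1 are long, at 206, 165 and 390 kb, as is Trp63 at 208 kb. Each had at most 0.529% of its span under peaks in a list. Itgam had 1.76% in series 1 and the short Cd68 18.8% in series 2. With 4 genes per cell type, these hits also say little about cell identity. SR proteins and hnRNPs are widely expressed, and the part of other cells in their peaks was not tested. With 1 ChIP library per series and 2 in all, the values below are a description of these libraries, without a test between groups.

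The promoter windows show where the peaks were not. RefSeq windows, which run from 250 bases before to 50 after a transcription start, were on hand for 30 of the 32 genes; Hnrnpll and Hnrnpul2 had no entry. No peak of either series touched a window of any of the 30. Over all 17492 coding genes with a window, 0.0572% had one touched in series 1 and 0.0743% in series 2, so the absence at these genes is the usual state in both lists. The part of the window upstream of the gene is printed for the genes that had a peak in both series and an entry, 5′ to 3′ on the gene's strand, because distances of peaks are counted from its right end. Capitals mark CpG dinucleotides. The stretches are Srsf3 at chr17:29032410-29032659 (plus strand), Hnrnpm at chr17:33685459-33685691 (minus strand), Hnrnpab at chr11:51606882-51607131 (minus strand) and Hnrnpa2b1 at chr6:51470049-51470144 (minus strand). Those of Srsf3 and Hnrnpab are 250 bases long, and the others were shortened where they met another coding gene or the gene's own span.
Srsf3: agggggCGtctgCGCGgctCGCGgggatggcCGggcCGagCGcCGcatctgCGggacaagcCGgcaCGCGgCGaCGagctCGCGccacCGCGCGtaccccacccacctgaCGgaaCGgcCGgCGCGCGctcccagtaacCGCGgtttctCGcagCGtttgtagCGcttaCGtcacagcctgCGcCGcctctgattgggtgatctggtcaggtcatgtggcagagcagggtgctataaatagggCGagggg
Hnrnpm: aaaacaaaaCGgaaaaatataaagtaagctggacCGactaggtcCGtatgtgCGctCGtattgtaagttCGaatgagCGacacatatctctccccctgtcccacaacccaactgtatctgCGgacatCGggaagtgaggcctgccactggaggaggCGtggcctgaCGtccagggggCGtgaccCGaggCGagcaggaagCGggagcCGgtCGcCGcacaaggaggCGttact
Hnrnpab: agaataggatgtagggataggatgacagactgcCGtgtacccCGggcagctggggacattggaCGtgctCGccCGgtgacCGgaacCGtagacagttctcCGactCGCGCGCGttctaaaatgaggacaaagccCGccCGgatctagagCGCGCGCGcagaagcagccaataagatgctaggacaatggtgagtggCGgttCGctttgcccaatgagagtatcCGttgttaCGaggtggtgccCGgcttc
Hnrnpa2b1: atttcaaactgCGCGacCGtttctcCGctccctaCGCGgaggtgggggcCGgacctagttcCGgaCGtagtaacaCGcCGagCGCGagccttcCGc

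These stretches hold 35 CpG dinucleotides in Srsf3, 19 in Hnrnpm, 23 in Hnrnpab and 14 in the shorter Hnrnpa2b1. Taking the richest window of each gene, the 30 genes had a median of 32 CpG per window (range 3 to 52), against 15 over all coding genes. The 4 genes hit in both series that had a window (median 31) and the 14 genes with no peak (median 34.5) had overlapping counts, and the 12 genes hit in 1 series had a median of 29.5. The 8-base palindrome CTCGCGAG, which reads the same on both strands, was present in a window of 3 of the 30 (Hnrnph1, Srsf4 and Srsf10) and of 1.41% of all coding genes. Hnrnph1 had a peak in series 2, Srsf4 in series 1 and Srsf10 in neither.

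The first comparison was how often these genes carried a peak. With at least 1 bp of a peak counted as a hit, 11 of the 32 genes (34.4%) were hit in series 1, where 16.3% of all protein-coding genes were. In series 2, 12 of 32 (37.5%) were hit against 19.5%. In both series the count was 5 of 32 (15.6%) against 8.42%, and in either series 18 of 32 (56.2%) against 27.4%. The splicing regulators are short, with a median span of 11.0 kb against 17.2 kb over all coding genes, and short genes offer less room for a peak. Among the 6953 coding genes whose span fell within the interquartile range of the members, 6.74 to 24.6 kb, the shares hit were 9.88% in series 1, 11.5% in series 2, 2.82% in both and 18.5% in either. The members' shares thus lay above both backgrounds in each list. The member counts include all 32 genes, from 1.17 to 39.2 kb, so some lie outside the span range of the second background. Exact binomial 95% intervals, which cover counting error only, ran from 37.7 to 73.6% for either series and from 5.28 to 32.8% for both. The genes come from the same 2 ChIP libraries and were picked with earlier results of these data known. The intervals therefore do not test the members against the backgrounds.

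The families' shares of hit genes could not be told apart at these numbers. In series 1, 3 of 11 SR protein genes (27.3%, 95% interval 6.02 to 61.0%) and 8 of 21 hnRNP genes (38.1%, 18.1 to 61.6%) had a peak. In series 2 it was 4 of 11 (36.4%, 10.9 to 69.2%) and again 8 of 21. In either series 6 of 11 (54.5%) and 12 of 21 (57.1%) were hit, and in both series 1 of 11 (9.09%, 0.230 to 41.3%) and 4 of 21 (19.0%, 5.45 to 41.9%). Each interval of one family held the share of the other, and with 11 and 21 genes a difference of this size was not detectable. Among genes with no coding neighbour within 5 kb the order in series 1 turned, with 60% of 5 SR protein genes and 0% of 2 hnRNP genes hit, and in series 2 the shares were 40% and 50%. SR protein genes had the shorter median span, 7.29 kb against 12.2 kb. Among coding genes within the interquartile span of each family, 15.1% were hit in either series at the lengths of SR protein genes and 18.9% at those of hnRNP genes, so the difference in length between the families goes with a small difference in background.

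**Figure D1:**
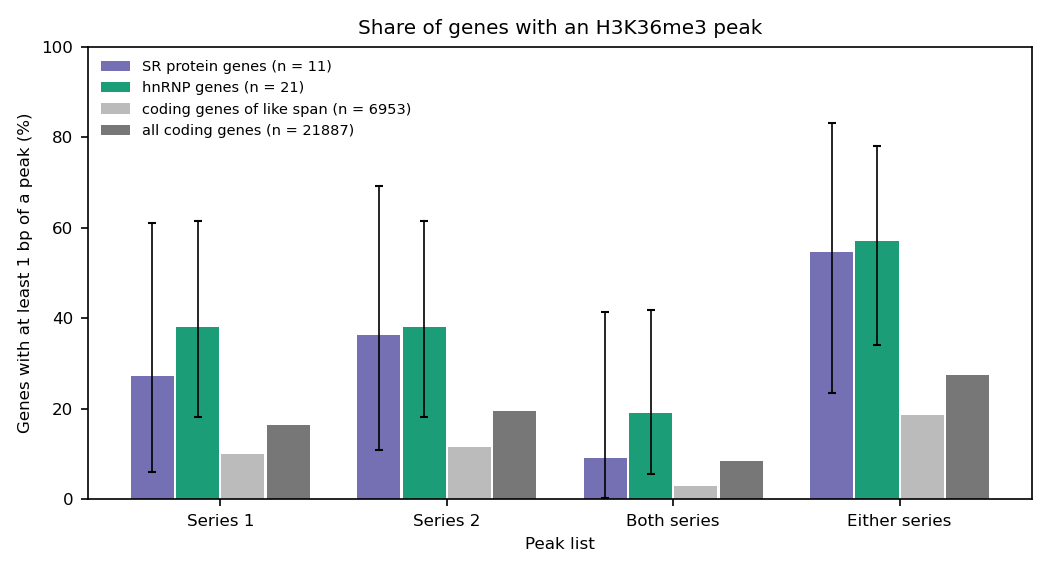
Bars give the percent of genes with at least 1 bp of an H3K36me3 peak in series 1, series 2, both or either, for 11 SR protein genes, 21 hnRNP genes, 6953 coding genes within the members' interquartile span and all 21887 coding genes. Error bars are exact binomial 95% intervals; the intervals of the families overlap in every list, and in either series both families stand above 50% where the backgrounds are 18.5% and 27.4%.

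Over the members hit, the median share of the span under peaks was 5.26% in series 1 (11 genes, range 0.715 to 22.3%) and 4.21% in series 2 (12 genes, range 1.57 to 31.7%). Over all coding genes hit it was 1.19% and 0.635%, and over hit coding genes within the members' interquartile span 3.76% and 2.01%. The hit SR protein genes of series 1, at 3.17%, lay below that value for genes of like span. With genes at 0 included, the mean covered share of the 32 genes was 2.80% in series 1 and 2.69% in series 2, against 0.494% and 0.341% for coding genes of like span. A large part of the series 2 mean came from Srsf6 alone, with 31.7% of its 5.61 kb covered. That span lies below the members' interquartile range. The median over all 32 was 0 in each series, as it was over all coding genes, since most genes had no peak. By family, hnRNP genes that were hit had a median of 7.27% in series 1 and 4.24% in series 2, and SR protein genes 3.17% and 3.66%, with 3 and 4 SR protein genes behind these values.

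Among the SR proteins, Srsf3 was the only one with a peak in both series. It encodes the smallest of them, which also takes part in mRNA export, and lies on chromosome 17 from 29032660 to 29043372, 24650 bp from the nearest coding gene. In series 1 a peak of 1220 bp with a score of 23 was centred 5.65 kb from its 5′ end, and a second of 292 bp with a score of 14 straddled the 3′ end, with 89 bp inside the gene. In series 2 a single peak of 220 bp with a score of 20 lay 7.11 kb from the 5′ end. The covered share was therefore 12.2% in series 1 and 2.05% in series 2, 7.14% ± 7.19 (SD, n = 2). The peaks of the libraries did not meet, and 744 bp separated the nearest.

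Srsf6 had the largest covered share of any member in a single list. Its protein is known for regulating an exon of tau, and its gene lies on chromosome 2 from 162931508 to 162937121. One series 2 peak of 1780 bp with a score of 18 covered 31.7% of the 5.61 kb gene, from a centre at 56.3% of its length. Only 2 of the 4262 coding genes hit in series 2 had more of their span under peaks. In series 1 Srsf6 had no peak, so its mean of 15.9% ± 22.4 (SD, n = 2) rests on 1 library. The score of 18 was moderate, above 56.4% of the series 2 list.

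The other SR protein genes with a peak had it in 1 series as well. Srsf5, close to Srsf6 in sequence and function, had a series 2 peak of 252 bp with a score of 29, the highest score of any member peak in that list, over 5.03% of its 5.01 kb. Srsf11, which encodes a more divergent RS-domain protein, had a series 2 peak of 589 bp over 2.29% of its span. Srsf4, the SR protein with the longest RS tail, had a series 1 peak of 418 bp with a score of 53 over 1.48% of 28.2 kb, and that score was above 94.8% of the list. Srsf12, a relative that counters other SR proteins in splicing, had a series 1 peak of 773 bp over 3.17%, with a score of 11, above only 0.844% of the list and next to the lowest score of 10. Srsf1, the prototype of the family, and Srsf2, Srsf7, Srsf9 and Srsf10 had no peak in either series. All 5 but Srsf10 span at most 7.29 kb, and Srsf10 is 14.2 kb long.

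Hnrnpa2b1 had the highest mean covered share of the 32 genes, 17.7% ± 6.51 (SD, n = 2), from 22.3% in series 1 and 13.1% in series 2. Its protein sorts mRNAs and microRNAs and takes part in splicing, and the gene lies on chromosome 6 from 51460434 to 51470048, 106 bp from Cbx3. Series 1 had a peak of 1232 bp (score 23) centred 4.19 kb from the 5′ end and a peak of 916 bp (score 51) at 8.67 kb. Series 2 had a peak of 579 bp (score 12) at 4.07 kb and a peak of 1277 bp (score 22) at 9.57 kb that ran past the 3′ end. Both pairs met: the whole 579 bp of the inner series 2 peak lay inside its series 1 counterpart, the outer pair shared 196 bp, and 775 bp in all were common. In covered share it ranked 12 of the 3571 coding genes hit in series 1 and 21 of the 4262 hit in series 2.

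The remaining hnRNP genes hit in both series were Hnrnpab, Hnrnpm and Hnrnpul2. Hnrnpab, an hnRNP of the A/B type, lies on chromosome 11 from 51600100 to 51606881 and overlaps Phykpl. It had 17.3% of its span under 1 series 1 peak of 1175 bp and 3.39% under 1 series 2 peak of 230 bp, 10.4% ± 9.85 (SD, n = 2). Both peaks also lie in Phykpl, so the gene they belong to cannot be told apart. Their nearest edges were 1412 bp from each other.

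Hnrnpm had the most peaks, 3 in series 1 and 2 in series 2. It encodes a splicing regulator of epithelial and mesenchymal exons such as those of Cd44, and is the longest member at 39.2 kb, on chromosome 17 from 33646233 to 33685458. The series 1 peaks, 991, 1228 and 1419 bp wide with scores of 21 to 24, were centred 11.5, 19.5 and 24.5 kb from the 5′ end and covered 9.27% of the gene. The series 2 peaks, 666 and 435 bp wide with scores of 17 and 18, lay nearer the 3′ end, at 31.6 and 33.6 kb, and covered 2.81%. The peaks of the libraries lay in separate parts of the gene, with 6.02 kb between the nearest. A further series 2 peak of 329 bp lay 256 bp beyond the 3′ end, inside Pram1.

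Hnrnpul2, which encodes a relative of hnRNP U with a part in the DNA damage response, lies on chromosome 19 from 8819401 to 8834143. It had a series 1 peak of 775 bp (score 41) and a series 2 peak of 232 bp (score 28) that shared 99 bp, and covered shares of 5.26% and 1.57%. Both scores stood high in their lists, above 88.9% of series 1 and 85.2% of series 2. Of the 5 genes hit in both series, Hnrnpa2b1 and Hnrnpul2 therefore had peaks that coincide. Among all 1843 coding genes hit in both series, 17.6% had peaks that shared bases within the gene, and the median distance between nearest peaks was 7.36 kb, against 0.744 kb for the 5 members. The spans of those genes were not matched to the members, and whether gene length goes with either difference was not tested.

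**Figure D2:**
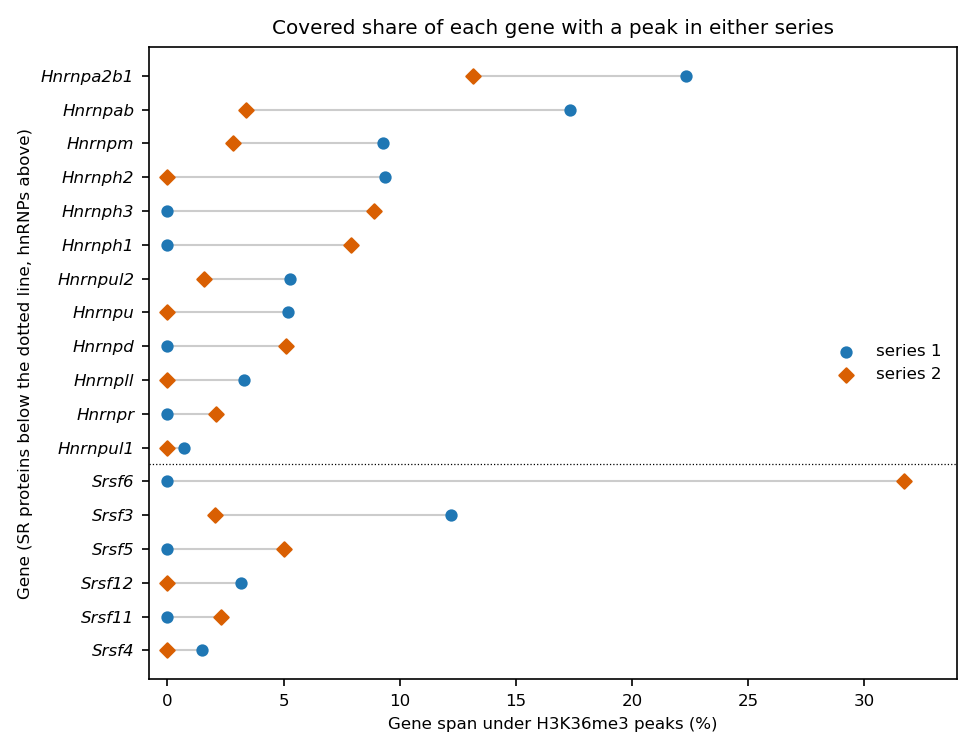
Points give the percent of each gene's span under H3K36me3 peaks in series 1 (blue circles) and series 2 (orange diamonds) for the 18 SR protein and hnRNP genes with a peak in either series, joined by a line for each gene. Of the 18 genes, 5 have both points above 0, with Hnrnpa2b1 at 22.3% and 13.1%, and Srsf6 has the highest single value, 31.7% in series 2 against 0 in series 1.

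By type of hnRNP, peaks were found in every gene of the U group, in 3 of 4 of the F and H group and in 3 of 8 of the A/B and D group. Over all coding genes 27.4% were hit in either series and 8.42% in both. With 3 to 8 genes per group, these counts do not set the types apart. All 3 genes of the U group had a series 1 peak. Hnrnpu, which encodes scaffold attachment factor A, a nuclear matrix protein that binds chromatin and RNA, had 2 peaks of 526 and 394 bp over 5.17% of its span, with low scores of 15 and 16. Hnrnpul1 had a peak of 251 bp over 0.715%, with a score of 55 that was the highest of any member peak in series 1. Neither had a series 2 peak.

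The F and H group, whose proteins bind runs of guanine, had no gene hit in both series. Hnrnph2 had a series 1 peak of 550 bp (score 40) over 9.35% of its 5.88 kb. Hnrnph1 and Hnrnph3 had series 2 peaks of 890 bp (score 17) over 7.90% and of 827 bp (score 15) over 8.88%. The Hnrnph3 peak also lies in Rufy2, which overlaps that gene. Hnrnpf, 25.3 kb long, had no peak. The covered shares of the 3 hit genes were alike, 7.90 to 9.35%, although they came from different libraries.

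In the A/B and D group 3 of 8 genes were hit: Hnrnpa2b1 and Hnrnpab as above, and Hnrnpd. Hnrnpd encodes AUF1, which binds AU-rich elements and steers mRNA decay, and had 2 series 2 peaks of 957 and 225 bp, each with a score of 12, over 5.10% of its span. Hnrnpa0, Hnrnpa1, Hnrnpa3, Hnrnpdl and Hnrnpa1l2-ps2 had none. The last is annotated as coding but carries the suffix of a pseudogene, and reads of near-identical copies of Hnrnpa1 may map to several loci, so the absence of a peak at both genes is uncertain. For Hnrnpa1, a major repressor of exon inclusion, a series 2 peak of 227 bp with a score of 12 lay 134 bp beyond the 3′ end.

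Of the other 6 genes, 3 were hit. Hnrnpr, which encodes an RNA-binding protein of neurons and other cells related to Syncrip, had a series 2 peak of 734 bp (score 12) over 2.09% of 35.0 kb. Hnrnpll, known for repressing variable exons of Ptprc in lymphocytes, had a series 1 peak of 1085 bp (score 23) over 3.31% of 32.8 kb. Hnrnpm was hit in both series. Hnrnpk, Hnrnpc and Hnrnpl, which bind cytosine tracts, uridine tracts and CA repeats, had no peak, although Hnrnpc spans 30.7 kb. Over the 14 members with no peak the nearest peak of either list was a median of 52.0 kb away (range 0.134 to 90.3 kb). Their median span was 7.27 kb, against 10.7 kb for the 5 genes hit in both series and 23.2 kb for the 13 hit in 1 series.

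Peaks lay in the middle and later parts of the genes. Strand was taken from the promoter table, which leaves out Hnrnpll and Hnrnpul2, and position was counted from 0% at the 5′ end to 100% at the 3′ end. In series 1 the 13 peaks centred inside a member had a median position of 43.6% (interquartile range 32.3 to 57.8%), and 9 of 13 lay at or beyond 40%. In series 2 the 14 peaks had a median of 74.4% (58.4 to 84.9%), and 13 of 14 lay at or beyond 40%. Over coding genes within the members' interquartile span the medians were 60.9% and 62.8%, with 78.5% and 77.5% of peaks at or beyond 40%. The members' peaks thus lay earlier than this background in series 1 and later in series 2.

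The hnRNP genes gave most of these positions. Their 10 series 1 peaks had a median position of 43.5%, and their 10 series 2 peaks a median of 81.5%, with 6 of those 10 beyond 80% of the gene. SR protein genes had medians of 52.7% in series 1 (3 peaks) and 50.8% in series 2 (4 peaks), near the middle in both. Of the hnRNP genes, only Hnrnpa2b1, Hnrnpab and Hnrnpm had placed peaks in both series. They gave 2, 1 and 3 of the 10 series 1 peaks and 2, 1 and 2 of the 10 series 2 peaks. The remaining hnRNP peaks came from different genes in each series, and the difference between the series was not tested. Within Hnrnpa2b1 the positions were alike, 43.6% and 90.2% in series 1 and 42.4% and 99.5% in series 2. In Hnrnpab the peak lay at 57.8% in series 1 and 89.0% in series 2, and in Hnrnpm the peaks lay at 29.3 to 62.6% in series 1 and 80.6 to 85.7% in series 2. Only 1 member peak in either series, that of Hnrnpul1 at 11.1%, lay before 20%, where 6.03% and 5.61% of peaks of coding genes of like span lay. Peaks of 1 gene share their gene and Hnrnpm gives 3 and 2 of these values, so they are not independent points.

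**Figure D3:**
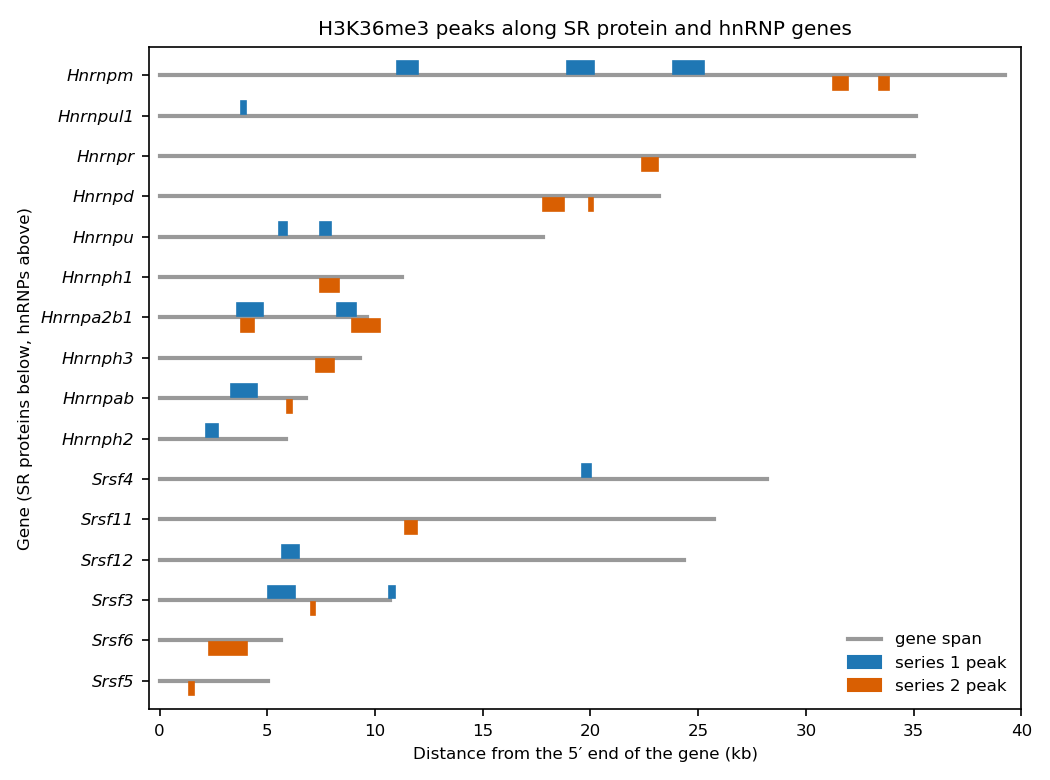
Grey lines are the spans of the 16 SR protein and hnRNP genes with a peak and a known strand, drawn to scale from the 5′ end (0 kb, left), with series 1 peaks as blue boxes above the line and series 2 peaks as orange boxes below. In Hnrnpa2b1 the boxes of both series coincide at about 4 kb and near the 3′ end, in Hnrnpm the series 2 boxes lie nearer the 3′ end than the series 1 boxes, and no box reaches a 5′ end.

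The peaks in these genes had larger median widths than peaks in coding genes at large, in series 2 mainly at low scores. In series 2 most peaks sit at the minimum width: 41.1% of the 6397 peaks that touch a coding gene were more than 9 bp wider than the narrowest peak of 216 bp, while 13 of the 15 member peaks (86.7%) were. The median width of the 15 was 589 bp (interquartile 242 to 858 bp), against 223 bp for peaks in any coding gene and 225 bp for those in coding genes of like span. In series 1 the 16 member peaks had a median width of 846 bp (interquartile 499 to 1186 bp), against 523 and 566 bp, and all 16 passed the same width margin, as did 96.6% of the 5151 peaks in coding genes. By family the medians were 954 bp (12 hnRNP peaks) and 596 bp (4 SR protein peaks) in series 1, and 666 bp (11) and 420 bp (4) in series 2. The excess in series 2 was nearly gone among the 4 member peaks with a score of at least 20, whose median was 242 bp against 223 bp for peaks in coding genes with such scores. In series 1 the same minimum left 1038 bp against 471 bp.

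Scores of the member peaks were ordinary for coding genes. In series 1 their median was 23 (range 11 to 55), against 21 for peaks in any coding gene, and 3 of 16 reached 50: Hnrnpul1, Srsf4 and the outer peak of Hnrnpa2b1. In series 2 the median was 17 (range 12 to 29), against 16, and none reached 50. A score of at least 20 was held by 12 of 16 member peaks in series 1 (75%, against 57.8% in coding genes) and by 4 of 15 in series 2 (26.7%, against 36.5%). The members hit in both series fell to 3 of 32 with such scores alone, the genes being Hnrnpa2b1, Srsf3 and Hnrnpul2.

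**Figure D4:**
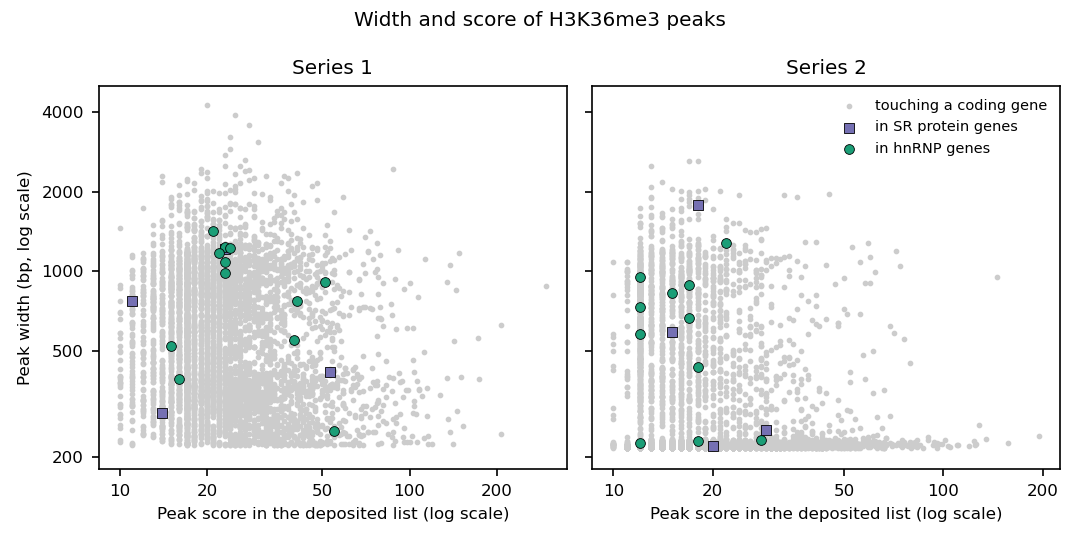
Each point is a peak that touches a coding gene, by its score in the deposited list (log scale) and its width in bp (log scale), with peaks in SR protein genes as purple squares and in hnRNP genes as green circles. In series 2 the grey points pile up near 220 bp, while 13 of the 15 coloured points lie more than 9 bp above the narrowest peak, at scores of 12 to 29.

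Genes that act on or beside these proteins were looked at as a fixed list of 45: kinases of SR proteins, nuclear import receptors, arginine methyltransferases, SR-related proteins, and hnRNPs under other symbols. Of these, 22 were hit in series 1, 22 in series 2, 14 (31.1%) in both and 30 (66.7%) in either. Among coding genes within the list's interquartile span, 12.1 to 49.3 kb, 6.62% were hit in both and 30.2% in either. These shares stand above the background as those of the SR proteins and hnRNPs do, and this list was written with earlier results on splicing factors known.

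Among kinases of SR proteins, 3 of 4 Clk genes, Dyrk1a and Prpf4b carried a peak and the 3 Srpk genes did not. That is 5 of 9 kinases (55.6%) in either series, against 27.4% of all coding genes and 30.2% within the whole list's interquartile span. With 4 Clk and 3 Srpk genes, these counts do not set the groups apart. Clk4, which phosphorylates RS tails in the nucleus, had 17.2% of its 18.7 kb under 3 series 1 peaks and 7.12% under 1 series 2 peak. Dyrk1a, which is 126 kb long, had 0.583% and 0.415%. Clk1, Clk2 and Prpf4b had a peak in series 2 alone, over 3.71%, 7.25% and 2.19% of their spans. Clk3, Srpk1, Srpk2 and Srpk3 had none, although Srpk2 is 181 kb long. Of the import receptors, Tnpo1, which carries hnRNPs into the nucleus, was hit in both series over 0.765% and 1.20% of its 87.4 kb. Tnpo3, which carries SR proteins, was hit in series 1 over 1.20% of its 69.0 kb. Of the methyltransferases, Prmt1 had 1 series 2 peak and Prmt5 none.

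SR-related proteins were hit in 15 of 18 cases, 7 of them in both series. Among coding genes within the whole list's interquartile span, 30.2% were hit in either series and 6.62% in both. The SR-related genes had a median span of 33.5 kb, and some, such as Scaf8 at 83.9 kb, lie beyond that range. A background at their own lengths was not computed. Pnn, a protein of the exon junction complex and of nuclear speckles, had 11.4% and 5.78% of its 7.10 kb under peaks in series 1 and 2, and Son, a scaffold of the speckles, had 8.04% and 3.19%. Luc7l2 had 5.08% and 2.00%, Srrm2 4.02% and 1.28%, Sfswap 3.26% and 1.63%, Nktr 2.17% and 0.540%, and Scaf8 0.305% and 0.968%. All but Scaf8 were covered more in series 1. Over all coding genes hit, the median covered share was also larger in series 1, 1.19% against 0.635%, so this order is not particular to these genes. Of 13 hnRNPs with other symbols, Pcbp2, Ptbp1, Raly and Ralyl were hit in both series, with covered shares of 3.91% and 2.83%, 2.56% and 2.23%, 0.793% and 1.25%, and 0.256% and 0.0612%.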

How the data were processed

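H3K36me3 ChIP-seq of mTEClo was represented by 2 deposited lists of broad peaks, 1 per ChIP library; input libraries were not used here beyond their place in peak calling. Bowtie2, SAMtools and MACS2 and build mm10 are named, without versions, in the submitters' processing notes. Filtering and sorting of the alignments is recorded in the peak names, by which the authors called series 1 against 2 input libraries and series 2 against 1. The deposited files give position and a whole-number score for each peak, from 10 upward, whose definition is not stated; scores were compared within a list only. Peaks were called per library, not on pooled libraries.

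Gene spans, symbols, strand and promoter windows came from RefSeq tables on GRCm38.p6; exons were not used here. A gene counted as hit with at least 1 bp of a peak inside its span. Covered share is the percent of the span under peaks. Exact (Clopper-Pearson) intervals cover counting error only. No p-value was computed. The protein sequences planned for the best covered gene of each family were not used here, and upstream windows of genes hit in both series are printed instead, which was chosen after seeing the data, as were the width summary, the palindrome, and the backgrounds by family span. The families, the lists and the alternatives were chosen with earlier results of these data known. Every member is accounted for; of the 45 regulators, those hit in both series and a few others are named, and some are not reported here by name. Overlap counting was checked on simulated peaks. Python 3.11.15, numpy 2.4.6, pandas 2.3.3, scipy 1.17.1 and matplotlib 3.10.9 were used.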

Additional observations from a re-analysis of the deposited data

How the results depend on the processing

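The counts of SR protein and hnRNP genes hit changed little with the bases required and the gene borders, and fell with the score minimum. The narrowest peaks were 221 bp in series 1 and 216 bp in series 2. A minimum of 200 bp could therefore remove only peaks cut at a gene border. In series 1 all 16 member peaks counted as wider, so that setting left its count as it was. With at least 200 bp, at least 1% of the span, spans extended by 1 kb or only the wider peaks, the 32 genes gave 10 to 11 hits in series 1, 11 to 13 in series 2, 4 to 5 in both and 17 to 19 in either. With a score of at least 20 there were 9, 4, 3 and 10, and with at least 50 there were 3, 0, 0 and 3. The count over all coding genes fell too: in both series it went from 1843 of 21887 to 722 and 19 at these scores. It was 499 with at least 1% of the span and 1083 with only the wider peaks. Such counts are not given here for single lists or for either series, so the fall is not particular to the members. Among the 7 members without a coding neighbour within 5 kb, 3 were hit in series 1, 3 in series 2, 1 in both and 5 in either. Of all coding genes without such a neighbour, 943 of 11139 were hit in both. Taking 1 library in place of both gave 11 to 12 members, and 22 of 45 regulators from each. By family, a score of at least 50 left 0% of SR protein genes in series 2 and 9.52% and 0% of hnRNP genes in series 1 and 2. A score of at least 20 left 9.52% of hnRNP genes in series 2, and among genes without a neighbour the order of the families in series 1 turned: 0% of 2 hnRNP genes and 60% of 5 SR protein genes were hit, against 38.1% and 27.3% over all. For the regulators, a score of at least 20 left 11 in series 2 and 6 in both. A score of at least 50 left 0 in series 1, 1 in series 2, 0 in both and 1 in either. At least 1% of the span left 8 in both. The 17 regulators without a neighbour gave 10, 8, 6 and 12. The median covered share over all genes was 0, and over hit genes alone it was 3.17% and 3.66% for SR proteins and 7.27% and 4.24% for hnRNPs in series 1 and 2. The median width of member peaks in series 2 fell to 242 bp at a score of at least 20; leaving out Hnrnpm kept it at 589 bp. In all, 70 of 106 alternatives stayed within the margin set for each value. This tally includes settings with little or no room to move, such as the 200 bp minimum and medians of 0 at a higher score minimum. It is therefore not a measure of robustness. No paired analysis was possible because only the ChIP libraries have peak lists and no test between groups was made. Depth is unknown, so how many unhit genes lay just under detection cannot be stated.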
